A study of Mus musculus with 16 samples.

Results

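The 43 genes described here encode proteins that bind actin filaments or monomers, or that tie filaments to focal adhesions, the contacts through which a cell grips the matrix around it. They are a hand-made list, taken by symbol and drawn up with earlier results of these data known, of filamins, adhesion linkers, crosslinkers, filament assembly and severing factors, monomer-binding proteins, non-muscle myosins, thin-filament proteins and LIM-domain proteins. All 43 were found among the 55487 genes of the count table, and all 43 were among the 18275 genes that passed the filter on low counts. In this list, 10 members are muscle-type genes, whose products belong to the sarcomere or are the striated-muscle form of a family (Flnc, Tln2, Cfl2, Cap2, Lmod2, Tmod1, Tmod4, Nebl, Xirp1 and Pdlim5). The other 33 are called non-muscle genes. Many of these are used by most cells, but some, such as Lcp1 and Coro1a of leukocytes, are not.

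The study asked how the heart responds to pressure overload when the long noncoding RNA Cardinal is absent. RNA came from the apex of the heart of 16 male mice, 4 in each of 4 groups: Ctrl sham and Ctrl TAC carried the wild-type genotype, and KO sham and KO TAC carried the CARDINAL-KO genotype. In transverse aortic constriction (TAC) the aorta was tied around a needle that was then withdrawn, which leaves it narrowed and loads the left ventricle, and in sham surgery the tie was omitted. All hearts were collected 4 weeks after surgery. The age and strain of the mice are not given in the sources used here, and a piece of apex holds cardiomyocytes together with fibroblasts, endothelial cells, pericytes and leukocytes.

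Actin exists as monomers and as filaments. In cardiomyocytes, filaments of fixed length form the thin filaments of the sarcomere, where tropomodulins and leiomodins act at their pointed ends and nebulette runs along them near the Z-disc, while filamin C and Xin-repeat proteins sit at Z-discs and intercalated discs, where force is passed on. In fibroblasts, endothelial cells and leukocytes, filaments turn over quickly: the Arp2/3 complex and formins start them, capping protein stops them, cofilin and its partners cut them, and thymosins and profilins hold the monomers. Focal adhesions join filaments to integrins through talin, vinculin, zyxin, paxillin, kindlin and the ILK-parvin complex, and changes of this machinery are a known feature of the loaded heart.

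Each library held between 53169437 and 79404714 counts. Levels are given in CPM, reads of a gene per fixed number of reads of the library after TMM scaling, and tests are edgeR quasi-likelihood tests adjusted over all 18275 genes by the Benjamini-Hochberg method. A gene is called when its adjusted p is under 0.05. The error given with each log2 fold change is its SE, taken from the test statistic of the fit to all 16 libraries, with 4 mice per group. That fit shares its estimate of spread over the 4 groups, so the SE does not show the spread of the groups compared. Cardinal itself (Gm12295) lay between 2.69 and 8.02 CPM in the 8 Ctrl libraries and between 0.276 and 0.553 CPM in 7 of the 8 KO libraries, but at 4.55 CPM in the library labelled KO TAC 4, which goes against its label. This library was kept. For the comparisons that include it, counts of members are also given without it, and for KO TAC against Ctrl TAC and the interaction the main values as well. The log2 fold changes of TAC against sham in KO are given only with it. Cardiomyocyte markers summed to 47254 to 54954 CPM in Ctrl sham, 47425 to 53369 in KO sham, 42165 to 46675 in Ctrl TAC and 35584 to 38580 in KO TAC. Animal numbers starting with 25 belonged to Ctrl TAC 2, 3 and 4 and to KO TAC 4, and those of the other 12 mice started with 3. Among the latter, numbers starting with 33 belonged to Ctrl sham 4 and to KO sham 1, 2 and 3, and to no TAC mouse. The labels do not say what the numbers mean.

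In the unloaded Ctrl heart the members spanned a wide range. Per kilobase of annotated exon, the mean level in Ctrl sham was highest for Lmod2 (leiomodin 2, which lengthens thin filaments) at 311 CPM per kb. Tmsb4x (thymosin beta 4, which binds actin monomers) followed at 135, Tmod1 (tropomodulin 1) at 79.3, Cfl2 (the muscle cofilin) at 77.9 and Pdlim5 (a Z-disc LIM protein) at 64.6 CPM per kb. The lowest were Lcp1 (L-plastin, a crosslinker of leukocytes) at 1.80, Coro1a (a coronin of leukocytes) at 1.96 and Myh10 (non-muscle myosin IIB heavy chain) at 3.48 CPM per kb. The muscle-type genes were not all high on this scale, since Tln2 (talin 2) stood at 4.16 CPM per kb against 14.3 for Tln1. The scale depends on the annotated exon length, which is 18.4 kb for Tln2 and 9.80 kb for Tln1. Without division by length their Ctrl sham means were 76.3 and 140 CPM.

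Windows at a transcript start of 4 members are shown because they hold a motif named for serum response factor or for TEAD factors, both known for actin and muscle genes. The genes they belong to also behaved differently after TAC. They were chosen after the motif matches and fold changes were seen. RefSeq windows from 250 bases before to 50 bases after a transcript start (build GRCm38.p6) were at hand for 36 of the 43 members, 47 windows in all. Pxn, Diaph1, Tln2, Xirp1, Coro1b, Parva and Cotl1 had no entry. Capitals mark a CArG box, the motif of serum response factor, or the TEAD motif GGAATG, searched on both strands, so that it may appear as CATTCC. The window of Flnc lies at chr6:29433006-29433305 on the plus strand, that of Flna at chrX:74246485-74246784 on the minus strand, that of Vcl at chr14:20929148-20929447 on the plus strand and that of Nebl, 1 of its 4, at chr2:17462807-17463106 on the minus strand. The windows of Flna and Nebl lie inside the annotated genes, downstream of their 5' ends. The other Nebl windows, among them that nearest its 5' end, hold no CArG box.
Flnc: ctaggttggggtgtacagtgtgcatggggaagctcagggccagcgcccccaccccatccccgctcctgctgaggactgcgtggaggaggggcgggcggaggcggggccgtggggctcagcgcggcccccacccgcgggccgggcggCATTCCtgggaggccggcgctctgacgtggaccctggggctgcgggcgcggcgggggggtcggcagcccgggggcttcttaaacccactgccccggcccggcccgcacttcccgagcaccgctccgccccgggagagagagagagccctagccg
Flna: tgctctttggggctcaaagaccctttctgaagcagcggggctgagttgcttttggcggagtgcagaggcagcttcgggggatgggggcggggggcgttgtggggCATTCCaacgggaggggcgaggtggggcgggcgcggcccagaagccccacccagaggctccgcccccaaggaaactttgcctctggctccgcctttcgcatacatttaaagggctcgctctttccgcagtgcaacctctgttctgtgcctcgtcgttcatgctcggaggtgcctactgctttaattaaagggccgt
Vcl: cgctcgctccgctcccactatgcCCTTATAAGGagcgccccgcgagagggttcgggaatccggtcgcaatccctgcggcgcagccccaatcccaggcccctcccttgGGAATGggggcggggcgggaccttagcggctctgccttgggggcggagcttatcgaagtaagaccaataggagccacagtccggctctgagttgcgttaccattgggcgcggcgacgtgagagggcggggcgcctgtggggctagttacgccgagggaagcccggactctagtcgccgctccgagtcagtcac
Nebl: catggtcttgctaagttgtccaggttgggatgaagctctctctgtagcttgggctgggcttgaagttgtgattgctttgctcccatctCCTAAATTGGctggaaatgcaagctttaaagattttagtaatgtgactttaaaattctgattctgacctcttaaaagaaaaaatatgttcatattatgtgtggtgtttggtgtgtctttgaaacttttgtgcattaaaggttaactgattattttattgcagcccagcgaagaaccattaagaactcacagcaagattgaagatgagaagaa

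A CArG box stood in 3 of the 47 member windows (6.38%), those of Vcl and Fermt2 and the shown window of Nebl, and in 1.63% of all 32851 windows of the table. GGAATG was found in 11 of 47 member windows (23.4%) against 14.7% of all windows. Windows of Flnc overlap and share a GGAATG site, which is counted in each. By gene, GGAATG was found in 10 of 36 members against 4481 of 27025 genes. TGANTCA is a motif of AP-1 factors with any base at N, whose last letters can be the first of CATTCC. It was found in 3 of 47 member windows (6.38%) against 7.81%. These are matches of letters in a short window and say nothing of binding.

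After TAC in Ctrl hearts, most of these genes rose. Of 43 members, 28 were called higher against 10.4% of all genes tested, and 2 were called lower against 9.60%. The non-muscle class had 23 of 33 higher and 0 lower, and the fitted fold change was positive in all 33. The muscle-type class was divided: Flnc, Lmod2, Pdlim5, Xirp1 and Cfl2 were higher, and Nebl and Cap2 were lower. The median log2 fold change was 0.25 over the members, 0.25 over the non-muscle and 0.17 over the muscle-type class, against 0.00 over all genes tested. In 25 members all 4 Ctrl TAC libraries lay above all 4 Ctrl sham libraries, against 10.5% of genes, and in 1 member (Cap2) all lay below, against 9.97%. The animal numbers of Ctrl TAC 2, 3 and 4, but of no Ctrl sham mouse, start with 25. Series and surgery are therefore in part confounded here. With a term for the series, 22 members were called higher and 1 lower. Of all 18275 genes, 2479 were then called, against 3652 without the term. Whether a change in such a piece of tissue reflects more cells of a type or more RNA per cell cannot be told apart.

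After TAC in KO hearts most of these genes rose as well. In this comparison 34 members were called higher (17.8% of all genes) and 2 lower (16.5%), and the median log2 fold change was 0.36 over the members, 0.39 over the 33 non-muscle genes and 0.15 over the 10 muscle-type genes, against -0.00 over all genes. In the non-muscle class 29 of 33 were higher, 0 lower, and Pxn, Vcl, Fermt2 and Coro1b were not called. The muscle-type genes called higher were again Flnc, Lmod2, Pdlim5, Xirp1 and Cfl2, while Cap2 and Tmod4 were lower. The 4 KO TAC libraries lay above the 4 KO sham libraries in 32 members (18.0% of genes) and below in 2 (16.6%), Cap2 and Tmod4. Without the library labelled KO TAC 4 the calls stood at 34 higher and 2 lower, with 5740 of 18494 genes called in all. Its omission left 33 members above without overlap (20.1% of genes) and 2 below (18.8%). With the term for the animal-number series, and all libraries kept, the calls were 34 higher and 3 lower, with 6229 of 18275 genes called in all. Numbers starting with 33 belonged to KO sham 1, 2 and 3 but to no KO TAC mouse, so they are in part confounded with surgery. With a term for them the calls were 31 higher and 3 lower, with 4831 of 18275 genes called. In all, 28 members were called higher in both genotypes, Cap2 lower in both, Nebl in Ctrl alone, 7 in KO alone, and 6 in neither (Tln2, Tmod1, Pxn, Vcl, Fermt2 and Coro1b).

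**Figure D1:**
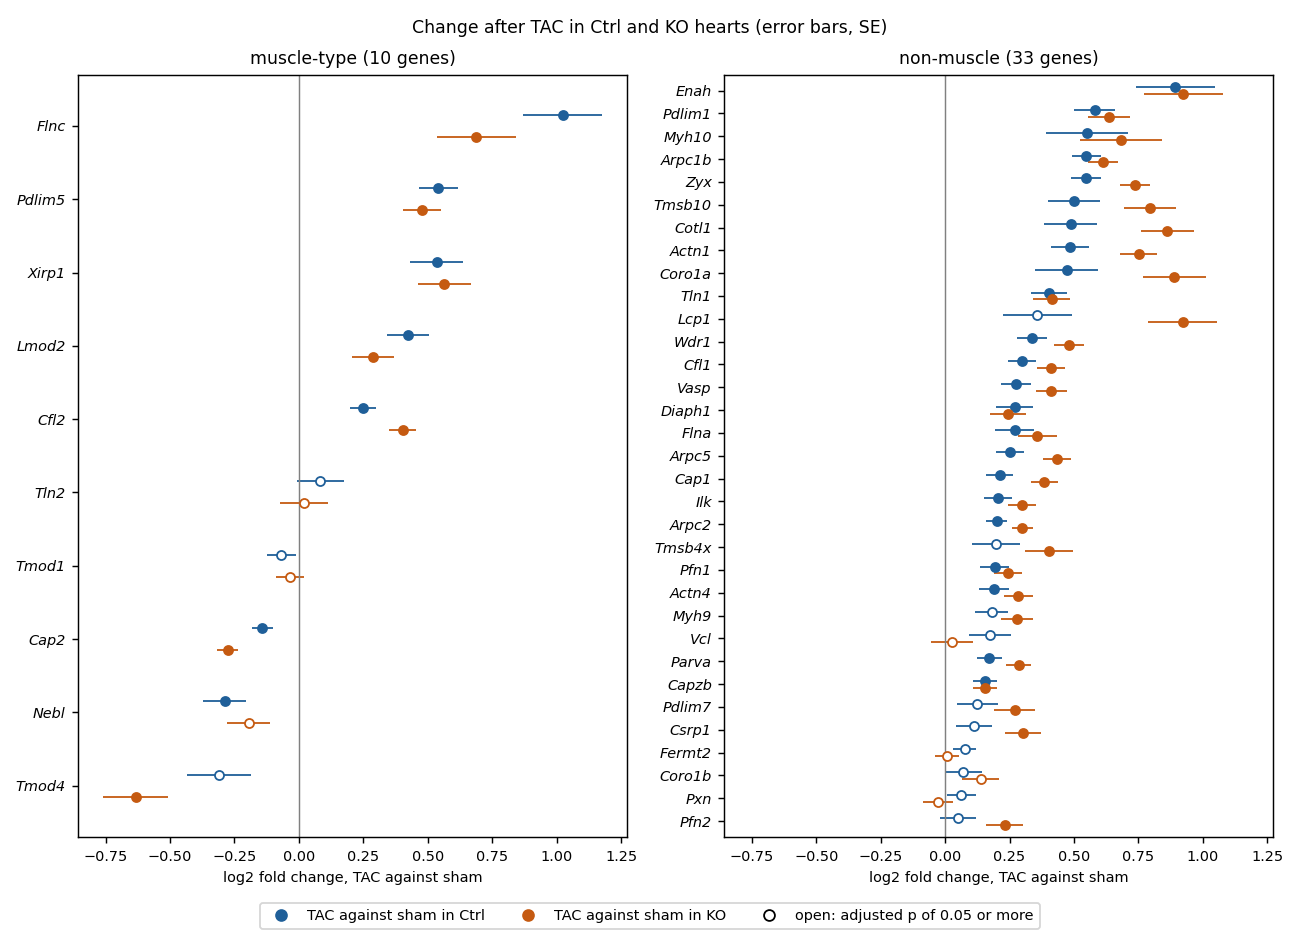
Log2 fold change of TAC against sham (x axis) for each of the 43 genes (y axis) in Ctrl hearts (blue) and KO hearts (orange), with muscle-type genes on the left and non-muscle genes on the right; bars are SE and filled points have an adjusted p under 0.05. Filled points lie to the right of 0 for 23 non-muscle genes in Ctrl and 29 in KO and none lies to the left, while filled muscle-type points lie on both sides.

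Markers of other cells moved in the same comparisons. The 6 fibroblast markers summed to 486 to 549 CPM in Ctrl sham, 494 to 527 in KO sham, 692 to 991 in Ctrl TAC and 997 to 1174 in KO TAC, and 3 of 6 in Ctrl and 6 of 6 in KO were called higher after TAC. The 7 macrophage markers summed to 155 to 207, 156 to 206, 215 to 273 and 238 to 341 CPM in the same order, with 5 of 7 and 7 of 7 called higher. None of these 13 markers had a group mean of 0. Of the 8 cardiomyocyte markers, 4 were lower and 2 higher in Ctrl and 5 lower and 1 higher in KO, while 0 of 6 endothelial markers were called in either genotype. Their part in the changes of the actin genes was not tested.

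The filamins, long crosslinkers that also anchor membrane proteins, held the largest rise of the list in Ctrl hearts. Flnc (filamin C of striated muscle, chr6:29433256-29461883) read 268, 271, 333 and 314 CPM in Ctrl sham and 731, 661, 454 and 565 CPM in Ctrl TAC. In KO sham it read 330, 292, 416 and 269 CPM and in KO TAC 498, 458, 597 and 554 CPM. Every TAC library exceeded every sham library of its genotype, with wide spread among the Ctrl TAC hearts. The log2 fold change was 1.02 ± 0.153 in Ctrl (adjusted p = 0.000259) and 0.69 ± 0.152 in KO (adjusted p = 0.00259). Flna (filamin A of non-muscle cells, chrX:74223461-74249820) read 121, 138, 148 and 141 CPM in Ctrl sham, 141, 180, 172 and 167 in Ctrl TAC, 121, 141, 132 and 134 in KO sham and 165, 157, 177 and 178 in KO TAC. Its rise was smaller, at 0.27 ± 0.0752 in Ctrl with overlapping groups and 0.36 ± 0.0752 in KO without overlap (adjusted p = 0.0160 and 0.00115). The Ctrl call of Flna was lost without Ctrl sham 1 (adjusted p = 0.0692) or without Ctrl TAC 2 (0.05002), and with a term for the animal-number series its log2 fold change was 0.12 (adjusted p = 0.440).

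Among the linkers of focal adhesions, zyxin and talin 1 rose and vinculin and paxillin were not called. Zyx (zyxin, which gathers at strained filaments) read 39.9, 38.0, 45.5 and 44.6 CPM in Ctrl sham and 60.8, 64.1, 57.1 and 63.1 in Ctrl TAC. In KO sham it read 43.9, 40.4, 40.6 and 42.3 and in KO TAC 72.0, 71.9, 67.9 and 67.1 CPM, so that the sham and TAC groups stood well apart in both genotypes. Its log2 fold change was 0.55 ± 0.0591 in Ctrl (adjusted p = 4.19e-06) and 0.74 ± 0.0592 in KO (adjusted p = 4.98e-08). Tln1 (talin 1, the link from integrin to actin) read 132, 141, 154 and 133 CPM in Ctrl sham, 198, 196, 161 and 186 in Ctrl TAC, 143, 136, 141 and 138 in KO sham and 178, 168, 205 and 193 in KO TAC, without overlap, and changed by 0.40 ± 0.0708 in Ctrl and 0.41 ± 0.0708 in KO on the log2 scale (adjusted p = 0.000511 and 0.000182). Its relative Tln2, found at costameres of muscle, read 71.5, 80.2, 77.8 and 75.6 CPM in Ctrl sham, 70.4, 95.2, 75.0 and 82.6 in Ctrl TAC, 72.7, 79.3, 65.5 and 77.6 in KO sham and 74.8, 64.1, 85.7 and 74.3 in KO TAC. The Tln2 groups overlapped throughout, with log2 fold changes of 0.08 ± 0.0921 and 0.02 ± 0.0922 and no call. Vcl (vinculin, which reinforces the talin link) had log2 fold changes of 0.17 ± 0.0819 in Ctrl and 0.03 ± 0.0819 in KO (adjusted p = 0.1502 and 0.8287), and Pxn (paxillin, an adaptor) had 0.06 ± 0.0574 and -0.03 ± 0.0574 (adjusted p = 0.496 and 0.764). The exons of Vcl overlap those of Ap3m1 on the other strand over 25.5% of their length, and reads of such pairs cannot be told apart if counting ignored strand.

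In the kindlin-ILK-parvin group, which activates and braces integrins, 2 of 3 genes were called higher in both genotypes. Ilk (integrin-linked kinase) had log2 fold changes of 0.20 ± 0.0543 in Ctrl and 0.30 ± 0.0543 in KO (adjusted p = 0.0118 and 0.000338), and Parva (alpha-parvin) of 0.17 ± 0.0486 and 0.29 ± 0.0486 (adjusted p = 0.0183 and 0.000173). Fermt2 (kindlin 2) was called in neither, with 0.08 ± 0.0462 and 0.01 ± 0.0462 (adjusted p = 0.283 and 0.937). The Ctrl call of Parva was lost without Ctrl sham 1 (adjusted p = 0.0703) or Ctrl TAC 4 (0.0649). With the animal-number term the adjusted p in Ctrl was 0.124 for Parva and 0.0933 for Ilk. Ilk needs care, since Taf10 and Rrp8 on the other strand cover 89.7% of its exon bases.

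Enah and Vasp, of the Ena/VASP family, which speeds filament growth at adhesions and cell junctions, rose. Evl, which belongs to the same family but is not among the 43, was not called, at 0.01 ± 0.0719 in Ctrl and 0.16 ± 0.0718 in KO (adjusted p = 0.943 and 0.0920). Enah (Mena, chr1:181896384-182019990) read 112, 115, 116 and 126 CPM in Ctrl sham, 311, 180, 163 and 216 in Ctrl TAC, 129, 127, 145 and 110 in KO sham and 237, 225, 262 and 245 in KO TAC. All TAC libraries were above all sham libraries of their genotype, and Ctrl TAC 1 was the highest of the 16. The log2 fold change was 0.89 ± 0.153 in Ctrl and 0.92 ± 0.153 in KO (adjusted p = 0.000836 and 0.000284). Vasp rose less, by 0.27 ± 0.0595 and 0.41 ± 0.0594 on the log2 scale (adjusted p = 0.00295 and 3.14e-05).

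All 3 crosslinkers were called higher in KO, and 2 of them in Ctrl. Actn1 (alpha-actinin 1 of stress fibers) read 21.5, 25.5, 25.7 and 27.0 CPM in Ctrl sham, 30.6, 37.2, 32.9 and 38.6 in Ctrl TAC, 25.4, 24.6, 24.0 and 26.0 in KO sham and 41.2, 41.1, 43.5 and 42.4 in KO TAC. The 4 KO TAC libraries were the highest of the 16, and the log2 fold change after TAC was 0.48 ± 0.0728 in Ctrl and 0.75 ± 0.0729 in KO (adjusted p = 0.000121 and 3.88e-07). Lcp1 read 13.2, 19.3, 19.7 and 16.2 CPM in Ctrl sham, 20.9, 17.8, 25.6 and 23.3 in Ctrl TAC, 12.2, 16.9, 16.3 and 15.8 in KO sham and 26.4, 32.0, 27.1 and 30.2 in KO TAC. The Lcp1 groups overlapped in Ctrl, at 0.36 ± 0.133 (adjusted p = 0.0713, not called), and stood apart in KO, at 0.92 ± 0.134 (adjusted p = 5.57e-05). Actn4 (alpha-actinin 4) had 0.19 ± 0.0574 and 0.28 ± 0.0574 (adjusted p = 0.0259 and 0.000823), and its Ctrl call was lost without any 1 of Ctrl sham 1, Ctrl sham 2, Ctrl TAC 1 and Ctrl TAC 2 (adjusted p = 0.0894, 0.0586, 0.0797 and 0.0523).

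**Figure D2:**
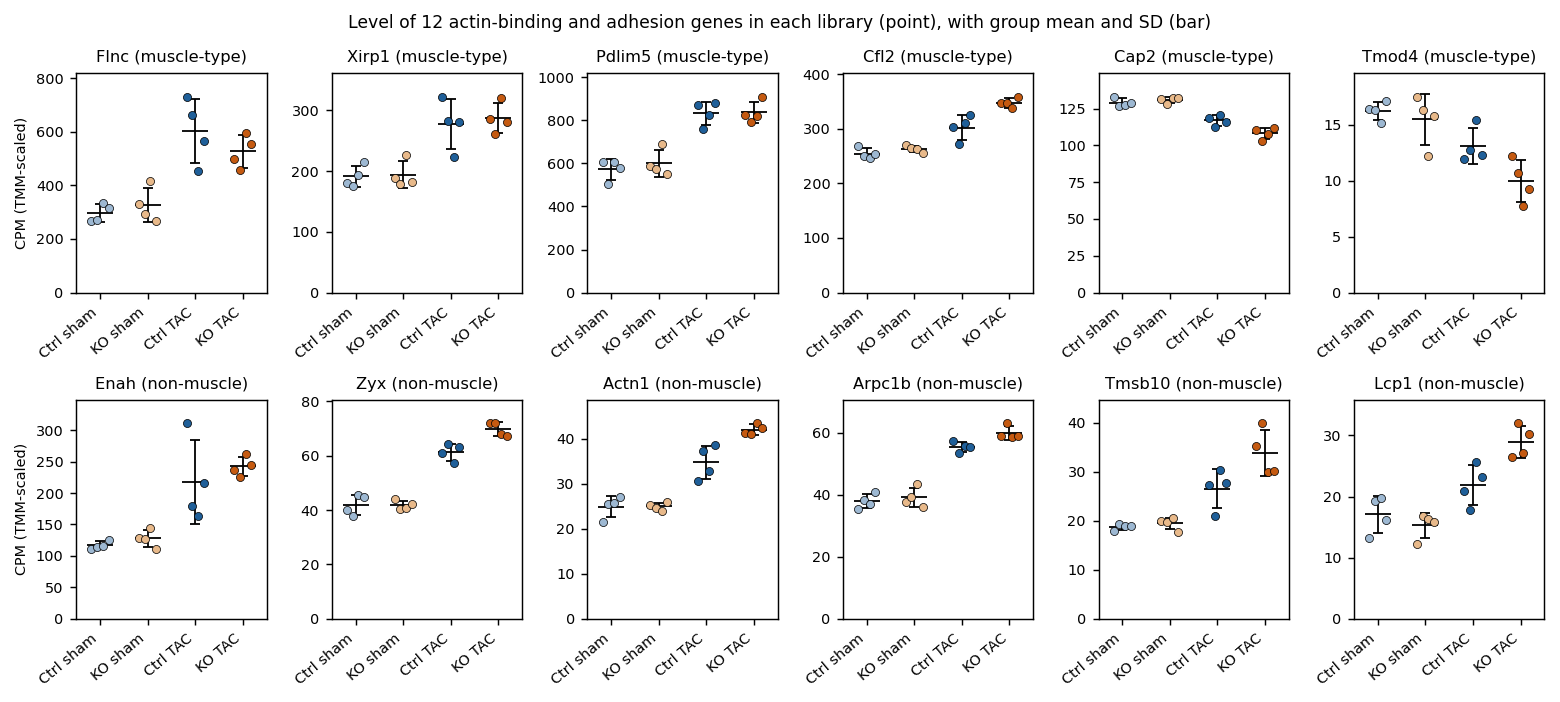
CPM (y axis, linear and from 0) of 12 of the genes in each of the 16 libraries, with 1 point per mouse and bars for the group mean and SD (n = 4). In Flnc, Xirp1, Pdlim5, Cfl2, Enah, Zyx, Actn1, Arpc1b and Tmsb10 every TAC point lies above every sham point of its genotype, Cap2 shows the opposite, and Lcp1 and Tmod4 separate from sham in KO but not in Ctrl.

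The 5 members that start and end filaments were called higher in both genotypes. Arpc1b, a subunit of the Arp2/3 complex, read 35.5, 38.3, 36.9 and 41.1 CPM in Ctrl sham, 57.4, 53.6, 55.7 and 55.3 in Ctrl TAC, 37.7, 39.2, 43.5 and 36.2 in KO sham and 58.8, 63.2, 58.6 and 59.1 in KO TAC. No sham library reached the lowest TAC library of its genotype, and the log2 fold changes were 0.55 ± 0.0575 in Ctrl and 0.61 ± 0.0575 in KO (adjusted p = 3.05e-06 and 2.65e-07). The other Arp2/3 subunits among the 43 moved less, Arpc2 by 0.20 ± 0.0408 and 0.30 ± 0.0408, and Arpc5 by 0.25 ± 0.0550 and 0.43 ± 0.0550. Of the subunits outside the 43, Arpc4 and Arpc5l were called higher in both genotypes. Actr2, Actr3 and Arpc3 were called higher in KO alone. Arpc1a was called in neither, at 0.01 ± 0.0452 and -0.03 ± 0.0451 (adjusted p = 0.937 and 0.685). Diaph1, a formin that elongates unbranched filaments, had 0.27 ± 0.0711 and 0.24 ± 0.0711, and Capzb, the beta subunit of capping protein, had 0.16 ± 0.0467 and 0.16 ± 0.0467. In Ctrl the adjusted p of Capzb was 0.0776 without Ctrl sham 2, 0.0606 without Ctrl sham 3, 0.0910 without Ctrl TAC 1 and 0.0762 in the fit to the 8 Ctrl libraries, and in KO it was 0.0572 without KO sham 4. The KO call of Diaph1 was lost without KO TAC 3 (adjusted p = 0.0518), and with a term for animal numbers starting with 33 its adjusted p was 0.170. The exons of Arpc1b overlap Pdap1 on the other strand over 18.2% of their length.

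Factors that sever and recycle filaments were called higher in 6 of 8 cases in each genotype. Coro1a read 5.15, 5.66, 6.24 and 4.83 CPM in Ctrl sham, 6.04, 7.37, 8.59 and 8.31 in Ctrl TAC, 3.92, 5.33, 5.41 and 4.67 in KO sham and 8.18, 9.81, 9.07 and 8.75 in KO TAC, with overlap in Ctrl only. Its log2 fold change was 0.47 ± 0.121 in Ctrl and 0.89 ± 0.122 in KO (adjusted p = 0.00960 and 1.82e-05). Cotl1 (coactosin-like protein, which binds filaments and is abundant in leukocytes) read 6.03, 6.50, 7.74 and 7.26 CPM in Ctrl sham, 7.97, 9.82, 10.3 and 10.4 in Ctrl TAC, 6.21, 6.89, 6.83 and 5.69 in KO sham and 11.4, 12.7, 10.4 and 12.1 in KO TAC. It separated sham from TAC in both genotypes, at 0.49 ± 0.102 and 0.86 ± 0.102 (adjusted p = 0.00233 and 3.97e-06). With the animal-number term neither was called in Ctrl (adjusted p = 0.206 for Coro1a and 0.109 for Cotl1). Coro1a, Cotl1 and Lcp1 are well expressed in leukocytes, and the macrophage marker sums given above were higher in TAC than in sham hearts. Lymphocyte markers summed to 0.684 to 1.76 CPM over all libraries, with 0 of 3 tested called in Ctrl and 2 of 3 higher in KO. Their part in these changes was not tested.

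Both cofilins, which cut old filaments, rose in both genotypes. Cfl2 (chr12:54858809-54862877) read 269, 250, 246 and 253 CPM in Ctrl sham, 303, 271, 310 and 325 in Ctrl TAC, 270, 265, 263 and 255 in KO sham and 348, 347, 337 and 359 in KO TAC. The groups stood apart, and the log2 fold change was 0.25 ± 0.0513 in Ctrl and 0.40 ± 0.0513 in KO (adjusted p = 0.00202 and 8.71e-06). Cfl1, the non-muscle form (chr19:5490455-5495201), read 70.8, 78.1, 75.9 and 76.8 CPM in Ctrl sham, 102, 88.4, 91.1 and 89.9 in Ctrl TAC, 74.6, 79.3, 81.2 and 73.5 in KO sham and 97.1, 109, 103 and 102 in KO TAC. It too separated sham from TAC, at 0.30 ± 0.0544 and 0.41 ± 0.0544 (adjusted p = 0.000715 and 1.31e-05). Cfl1 has processed pseudogenes, and its exons overlap Snx32 on the other strand over 16.5% of their length, so its counts are less certain.

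The cyclase-associated proteins, which strip monomers from cofilin-cut filaments, moved in opposite directions. Cap2, the form of striated muscle (chr13:46501848-46650281), read 133, 126, 128 and 129 CPM in Ctrl sham and 119, 113, 121 and 116 in Ctrl TAC. In KO sham it read 132, 128, 132 and 132 and in KO TAC 110, 103, 108 and 112 CPM. Every TAC library was below every sham library of its genotype, and on the log2 scale Cap2 changed by -0.14 ± 0.0409 in Ctrl and -0.28 ± 0.0409 in KO (adjusted p = 0.0193 and 4.15e-05). Cap1, the form of most other cells (chr4:122859047-122886056), read 40.8, 43.9, 43.6 and 40.9 CPM in Ctrl sham, 51.1, 45.4, 49.9 and 49.4 in Ctrl TAC, 39.7, 43.2, 45.6 and 40.7 in KO sham and 55.2, 53.7, 56.0 and 56.0 in KO TAC. Here every TAC library was above every sham library of its genotype, at 0.21 ± 0.0514 and 0.39 ± 0.0514 (adjusted p = 0.00673 and 1.43e-05). The Ctrl call of Cap2 was lost without Ctrl sham 1 (adjusted p = 0.0612), Ctrl TAC 2 (0.0520) or Ctrl TAC 4 (0.0534), with the direction kept. It was also lost with the animal-number term (adjusted p = 0.0754), with no low-count filter (0.0585) and in the fit to the 8 Ctrl libraries (0.0685). Of the remaining factors, Wdr1, a cofactor of cofilin, was higher by 0.34 ± 0.0581 and 0.48 ± 0.0581 (adjusted p = 0.000435 and 4.75e-06). Coro1b, a coronin of most cells, was not called, at 0.07 ± 0.0718 and 0.14 ± 0.0719. Its exons overlap Ptprcap and Rps6kb2 over 14.9% of their length.

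Of the 4 genes of monomer-binding proteins, 2 were called higher in Ctrl and 4 in KO, and the interaction test called none of them. Tmsb10 (thymosin beta 10) read 18.0, 19.3, 18.9 and 18.9 CPM in Ctrl sham, 27.2, 20.9, 30.4 and 27.7 in Ctrl TAC, 19.9, 19.7, 20.5 and 17.7 in KO sham and 35.2, 39.9, 29.9 and 30.1 in KO TAC. Sham and TAC did not overlap, and the log2 fold changes were 0.50 ± 0.102 in Ctrl and 0.80 ± 0.102 in KO (adjusted p = 0.00192 and 1.02e-05). Tmsb4x had 0.20 ± 0.0931 in Ctrl, not called (adjusted p = 0.151), and 0.40 ± 0.0932 in KO (adjusted p = 0.00265). Pfn1 (profilin 1) had 0.19 ± 0.0558 and 0.24 ± 0.0558 (adjusted p = 0.0206 and 0.00228), and Pfn2 0.05 ± 0.0703 and 0.23 ± 0.0703 (adjusted p = 0.671 and 0.0162). The Ctrl call of Pfn1 was lost without Ctrl sham 1 (adjusted p = 0.0842) or Ctrl TAC 4 (0.0766), and the KO call of Pfn2 without KO sham 3 (0.0608). With the animal-number term the adjusted p of Pfn1 in Ctrl was 0.108, in the fit to the 8 Ctrl libraries it was 0.0631, and with the term for animal numbers starting with 33 that of Pfn2 in KO was 0.196. Tmsb4x, Tmsb10 and Pfn1 have processed pseudogenes, and how their shared reads were counted is not given in the sources used here.

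Of the non-muscle myosins, which pull on filaments outside the sarcomere, Myh10 read 32.8, 37.6, 38.0 and 37.2 CPM in Ctrl sham, 73.6, 47.9, 41.0 and 50.8 in Ctrl TAC, 36.7, 34.3, 45.7 and 31.6 in KO sham and 54.5, 56.3, 71.7 and 55.6 in KO TAC. All TAC libraries were above the sham libraries of their genotype, with 1 high heart in each TAC group. The log2 fold change was 0.55 ± 0.159 in Ctrl and 0.68 ± 0.159 in KO (adjusted p = 0.0239 and 0.00378), and in Ctrl it was 0.36 without Ctrl TAC 1 (adjusted p = 0.0520) and 0.50 without Ctrl sham 1 (0.0722). The Ctrl call of Myh10 was also lost with no low-count filter (adjusted p = 0.0554) and in the fit to the 8 Ctrl libraries (0.0512). Myh9 (non-muscle myosin IIA heavy chain) had 0.18 ± 0.0634 in Ctrl, not called (adjusted p = 0.0527), and 0.28 ± 0.0634 in KO (adjusted p = 0.00217).

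Thin-filament and Xin genes, all muscle-type, moved in both directions. Xirp1, an actin-binding repeat protein of the intercalated disc, read 181, 176, 194 and 215 CPM in Ctrl sham, 322, 283, 222 and 280 in Ctrl TAC, 189, 179, 226 and 182 in KO sham and 286, 262, 320 and 280 in KO TAC. Sham and TAC stood apart in both genotypes, at 0.53 ± 0.102 and 0.56 ± 0.102 (adjusted p = 0.00130 and 0.000381). Tmod4, a tropomodulin best known from skeletal muscle, read 16.4, 16.3, 15.2 and 17.1 CPM in Ctrl sham, 11.97, 12.8, 15.5 and 12.3 in Ctrl TAC, 17.5, 16.3, 12.3 and 15.8 in KO sham and 12.2, 10.7, 7.78 and 9.26 in KO TAC. It fell in KO without overlap, at -0.63 ± 0.126 (adjusted p = 0.000783), and was not called in Ctrl, at -0.31 ± 0.125 (adjusted p = 0.0927). The 7 skeletal muscle markers summed to 1.33 to 2.35 CPM in 15 libraries and to 6.45 CPM in Ctrl TAC 2. Their part in the Tmod4 values was not tested.

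Lmod2 was higher after TAC, by 0.42 ± 0.0808 in Ctrl and 0.29 ± 0.0807 in KO (adjusted p = 0.00107 and 0.00991), and with a term for animal numbers starting with 33 the KO value was 0.16 (adjusted p = 0.272). Nebl (nebulette, chr2:17343909-17731464), of whose windows only that shown above holds a CArG box, was lower in Ctrl at -0.29 ± 0.0818 (adjusted p = 0.0177). In KO it was not called, at -0.20 ± 0.0817 (adjusted p = 0.0735). Its Ctrl call was lost without Ctrl sham 1 (adjusted p = 0.0740), Ctrl sham 3 (0.0510) or Ctrl TAC 1 (0.0580). Tmod1, the cardiac tropomodulin, was called in neither genotype, at -0.07 ± 0.0559 and -0.03 ± 0.0559, and Tstd2 on the other strand overlaps 32.6% of its exon bases.

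Of the LIM-domain members, scaffolds of Z-discs and stress fibers, 2 of 4 were called higher in Ctrl and 4 of 4 in KO. Pdlim1 read 42.3, 43.5, 40.2 and 47.0 CPM in Ctrl sham, 65.8, 61.6, 65.9 and 65.4 in Ctrl TAC, 50.2, 44.7, 54.2 and 42.1 in KO sham and 74.4, 83.3, 75.4 and 63.9 in KO TAC. The muscle-type Pdlim5 read 607, 502, 605 and 579 CPM in Ctrl sham, 870, 762, 826 and 878 in Ctrl TAC, 588, 576, 691 and 550 in KO sham and 825, 794, 819 and 910 in KO TAC. Both genes separated sham from TAC in both genotypes. Pdlim1 changed by 0.58 ± 0.0803 and 0.64 ± 0.0802 (adjusted p = 5.78e-05 and 7.75e-06) and Pdlim5 by 0.54 ± 0.0754 and 0.48 ± 0.0753 (adjusted p = 6.05e-05 and 8.06e-05). Pdlim7, a further PDZ-LIM protein, and Csrp1 were called in KO alone, Pdlim7 at 0.13 ± 0.0798 and 0.27 ± 0.0797 (adjusted p = 0.303 and 0.0134) and Csrp1, a LIM protein of smooth muscle and stress fibers, at 0.11 ± 0.0698 and 0.30 ± 0.0697 (adjusted p = 0.289 and 0.00236). The KO call of Pdlim7 was lost without KO TAC 1 (adjusted p = 0.0535).

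For 4 pairs the muscle-type and non-muscle paralogue can be set against each other within a library, as a ratio of counts that no scaling of libraries alters. The ratio of Cap2 to Cap1 was 3.262, 2.88, 2.93 and 3.15 in Ctrl sham, 3.32, 2.97, 2.90 and 3.24 in KO sham, 2.32, 2.48, 2.42 and 2.34 in Ctrl TAC and 2.00, 1.92, 1.92 and 1.99 in KO TAC. All 8 TAC hearts lay below all 8 sham hearts, and the 4 KO TAC hearts below the 4 Ctrl TAC hearts. The mean log2 ratio was 1.61 ± 0.0850 (SD, n = 4) in Ctrl sham, 1.63 ± 0.0945 in KO sham, 1.26 ± 0.0446 in Ctrl TAC and 0.97 ± 0.0331 in KO TAC. In the library labelled KO TAC 4 the ratio was 1.99, within the range of the other 3 KO TAC libraries. No test was made of these ratios.

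The ratio of Flnc to Flna was 2.21, 1.97, 2.26 and 2.23 in Ctrl sham, 2.72, 2.07, 3.14 and 2.01 in KO sham, 5.20, 3.68, 2.64 and 3.38 in Ctrl TAC and 3.02, 2.91, 3.37 and 3.11 in KO TAC. It was higher in every Ctrl TAC heart than in every Ctrl sham heart, whereas KO sham 3 overlapped with the KO TAC hearts. The ratio of Tln2 to Tln1 was 0.541, 0.567, 0.506 and 0.568 in Ctrl sham, 0.507, 0.583, 0.465 and 0.564 in KO sham, 0.356, 0.487, 0.465 and 0.443 in Ctrl TAC and 0.422, 0.382, 0.417 and 0.386 in KO TAC, and thus lower after TAC without overlap in either genotype. The ratio of Cfl2 to Cfl1 lay between 3.20 and 3.79 in Ctrl sham, 3.24 and 3.61 in KO sham, 2.98 and 3.61 in Ctrl TAC and 3.20 and 3.58 in KO TAC, with all 4 groups overlapping. In Ctrl the ratio thus moved toward the muscle-type form for the filamins and toward the non-muscle form for the talins and the cyclase-associated proteins. Per kilobase the median Ctrl sham ratio was 2.22 for the filamins, 0.296 for the talins, 2.85 for the cofilins and 2.56 for the cyclase-associated proteins.

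**Figure D3:**
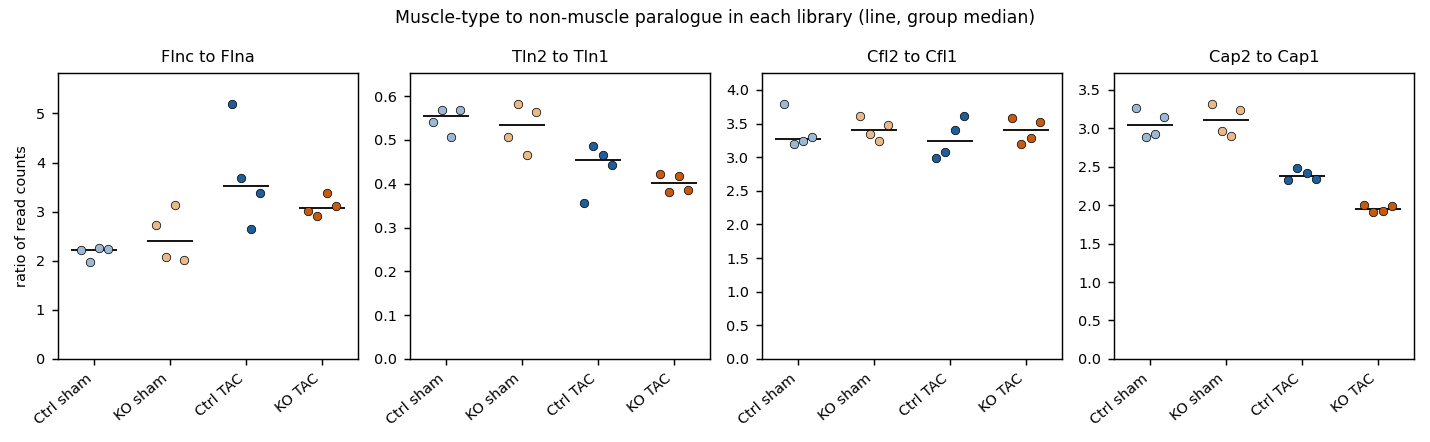
Ratio of read counts (y axis, linear and from 0) of the muscle-type to the non-muscle paralogue in each of the 16 libraries, 1 point per mouse, with a line at the group median. The Cap2 to Cap1 ratio falls from 2.88 to 3.32 in sham to 2.32 to 2.48 in Ctrl TAC and 1.92 to 2.00 in KO TAC, and the cofilin ratio overlaps in all groups.

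Without pressure overload, no difference between KO and Ctrl hearts was detected in these genes. In KO sham against Ctrl sham 0 of 43 members were called (0.00% of all genes), 0 had an unadjusted p under 0.05 against 479 genes or 2.62% of all, and in 0 members the groups stood apart, above or below (0.941% and 0.837% of genes). DESeq2 also called 0 members (0.0110% of genes). Log2 fold changes lay between -0.18 (Coro1a) and 0.14 (Pdlim1), with a median of 0.01.

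Between KO and Ctrl hearts after TAC, 1 of the 43 genes passed the test. The Ctrl TAC and KO TAC libraries are those of the comparisons with sham above, so the results are not independent. Cfl2 was the only member called higher (1.36% of all genes) and no member was called lower (1.32%). Cfl2 read 303, 271, 310 and 325 CPM in Ctrl TAC and 348, 347, 337 and 359 in KO TAC, with no overlap, at a log2 fold change of 0.20 ± 0.0512 (adjusted p = 0.0425). This call is at the edge: the adjusted p rose above 0.05 when any 1 of 13 of the 16 libraries was left out, was 0.139 without Ctrl TAC 2, and was 0.0925 without the library labelled KO TAC 4. DESeq2 called 12 members, 10 higher and 2 lower, against 7.61% of the 15760 genes it tested. These DESeq2 calls were not computed without the library labelled KO TAC 4.

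At an unadjusted p under 0.05 stood 20 of the 43 members (46.5%), against 18.5% of all genes, of which 16 were higher and 4 lower in KO TAC. The non-muscle class had 15 higher and 1 lower of 33, and the muscle-type class 1 higher and 3 lower of 10. The median log2 fold change was 0.13 over the non-muscle and -0.06 over the muscle-type genes, against -0.00 over all genes. All 4 KO TAC libraries lay above all 4 Ctrl TAC libraries in 11 members (5.55% of genes), namely Cfl2, Tmsb4x, Vasp, Wdr1, Actn1, Lcp1, Arpc1b, Arpc2, Cap1, Csrp1 and Zyx, and below in 1 (4.99%), Cap2. Without the library labelled KO TAC 4, with 8.14% of all genes above and 7.43% below, these counts were 12 and 2, with Pdlim1 and Vcl added, and 20 members stood at an unadjusted p under 0.05 (16 higher and 4 lower), against 18.3% of all genes.

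The largest differences with their tests were Lcp1 at 0.40 ± 0.132 (adjusted p = 0.111) and Tmsb10 at 0.35 ± 0.1005 (adjusted p = 0.0693) above 0, and Tmod4 at -0.40 ± 0.126 (adjusted p = 0.0964) and Lmod2 at -0.23 ± 0.0807 (adjusted p = 0.126) below. Tmsb4x read 231, 166, 234 and 221 CPM in Ctrl TAC and 250, 295, 239 and 252 in KO TAC, at 0.28 ± 0.0930 (adjusted p = 0.108). Actn1, at 0.27 ± 0.0721, was the nearest to the threshold of those not called (adjusted p = 0.0509), and Enah, at 0.16 ± 0.152, reached 0.38 (adjusted p = 0.0393) once Ctrl TAC 1 was left out. In that fit every Ctrl TAC mouse has a number starting with 25, against 1 of 4 KO TAC mice, so genotype and series are more confounded there. Without the library labelled KO TAC 4 the values were 0.38 for Lcp1, 0.40 for Tmsb10, 0.30 for Tmsb4x, 0.27 for Actn1, -0.36 for Tmod4 and -0.22 for Lmod2, none of them called. In Cap2, at -0.11 ± 0.0409 (adjusted p = 0.140), KO TAC was lower in every library. With a term for the animal-number series no member was called, and since 3 of 4 Ctrl TAC mice and 1 of 4 KO TAC mice are of the series starting with 25, series and genotype are in part confounded among TAC hearts. Between the TAC groups, the cardiomyocyte marker sums given above were lower in every KO heart and the fibroblast sums higher in every KO heart, while the macrophage sums overlapped. Such sums are weighted to abundant genes: mean Myh6 was 20046 CPM in Ctrl TAC and 15336 in KO TAC. Among fibroblast markers the means of Dcn were 352 and 465 CPM, but those of Pdgfra 33.7 and 34.8. The mean of every marker in these cardiomyocyte and fibroblast lists moved in the direction of its sum. By gene, 2 of 8 cardiomyocyte markers were called lower, 1 of 6 fibroblast markers higher and 0 of 7 macrophage markers. Their part in these differences was not tested.

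**Figure D4:**
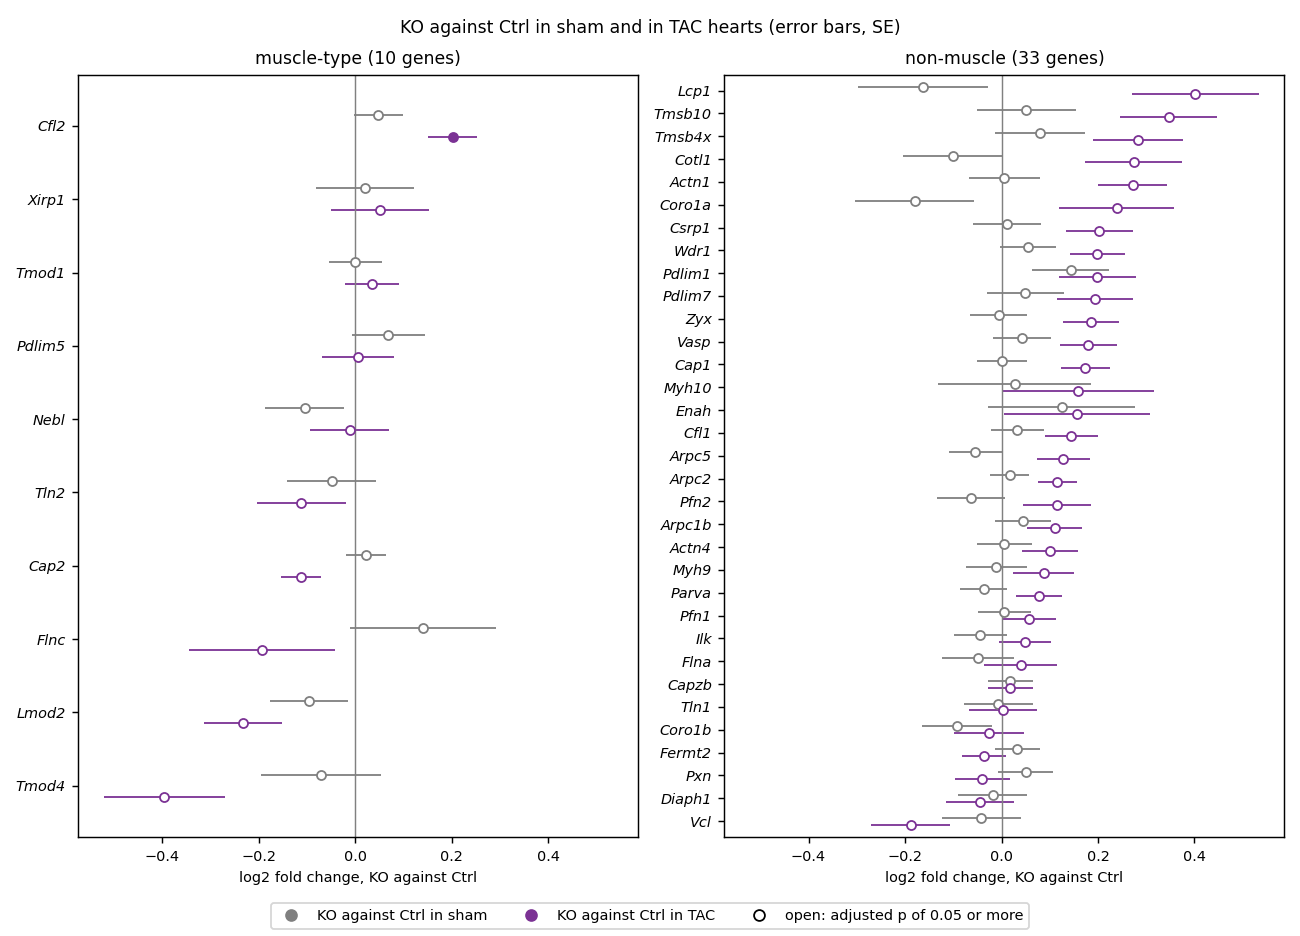
Log2 fold change of KO against Ctrl (x axis) for each of the 43 genes (y axis) in sham hearts (grey) and TAC hearts (purple), with SE as bars; filled points have an adjusted p under 0.05. Only Cfl2 in TAC hearts is filled; non-muscle points of the TAC hearts have a median of 0.13 and muscle-type points of -0.06.

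Whether KO altered the response to TAC was tested as the genotype by surgery interaction, and 0 members were called (0.0109% of all genes, 2 genes). By DESeq2 the count was also 0 (0.838% of genes). At an unadjusted p under 0.05 were 9 members (20.9%, against 11.1% of genes), 8 with a larger and 1 (Cap2) with a more negative response in KO. Lcp1 had the largest interaction at 0.56 ± 0.188 on the log2 scale (adjusted p = 0.287), followed by Coro1a at 0.42 ± 0.171 (adjusted p = 0.374) and Cotl1 at 0.37 ± 0.144 (adjusted p = 0.341). In the same test 0 of 7 macrophage, 0 of 3 lymphocyte and 0 of 6 fibroblast markers were called. Their median interactions were 0.25, 0.62 and 0.39 in that order, and the part of these cells was not tested. Cap2 stood at -0.14 ± 0.0578 and Cap1 at 0.17 ± 0.0727 (adjusted p = 0.395 and 0.381), and Flnc at -0.33 ± 0.215 (adjusted p = 0.601). Without the library labelled KO TAC 4 there were also 9 members at an unadjusted p under 0.05, against 11.5% of genes, with Tmsb10 in place of Cfl2, and the values were 0.54 for Lcp1, 0.43 for Coro1a, 0.36 for Cotl1 and -0.15 for Cap2. The members called after TAC in KO alone are therefore not shown to respond differently from Ctrl.

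In the wider actin and adhesion machinery most calls after TAC were also higher. Of 92 further genes of the pathway that passed the filter, 31 were called higher and 5 lower after TAC in Ctrl, against 10.4% and 9.60% of all genes. In KO the counts were 43 and 6, against 17.8% and 16.5%, with median log2 fold changes of 0.12 in Ctrl and 0.19 in KO. The largest rises in Ctrl were those of Xirp2, the second Xin-repeat gene, at 1.85 ± 0.159 (SE, adjusted p = 1.87e-06), of Synpo2l, a Z-disc actin-bundling protein, at 1.40 ± 0.197 (adjusted p = 0.000203), and of Fhl1, a LIM protein of the sarcomere, at 1.27 ± 0.182 (adjusted p = 0.000220). The largest falls were smaller: Pdlim4 at -0.44 ± 0.151 (adjusted p = 0.0482), Coro6 at -0.20 ± 0.0564 (adjusted p = 0.0165) and Fhod3, a formin of the cardiac sarcomere, at -0.20 ± 0.0580 (adjusted p = 0.0201). Between KO TAC and Ctrl TAC, 2 of the 92 were higher and 1 lower, a share near the 2.68% of all genes called. They were Pdlim3 at 0.57 ± 0.119 (adjusted p = 0.0196), Csrp2 at 0.43 ± 0.0903 (adjusted p = 0.0202) and Lims2, the partner PINCH2 of ILK, at -0.37 ± 0.0936 (adjusted p = 0.0455). Between sham groups and in the interaction 0 of the 92 were called.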

How the data were processed

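The authors deposited 1 table of whole-number read counts per gene for the 16 libraries. The submitters' processing notes name cutadapt 2.3, FastQC, HISAT2 2.1.0, edgeR 3.26.1 and GRCm38. The counting program, annotation and strand setting are not given in the sources used here. Libraries were poly(A)-selected and read as pairs of 150 bases.

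Gene IDs were named from GENCODE M21, which matched 55227 of 55487. Counts were filtered (filterByExpr), TMM-scaled and fitted in edgeR 4.0.16 (R 4.3.3) with a mean per group over all 16 libraries, using robust quasi-likelihood tests and Benjamini-Hochberg adjustment over 18275 genes. The fit was also run on simulated counts that held no animal-number series and no library at odds with its label, so that run does not bear on either. SE is that of the log2 fold change. Each library is 1 mouse, so p-values rest on the spread between mice.

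The 43 members and all lists were chosen with earlier results of these data known. Values per library are given for members called with an absolute log2 fold change of at least 0.5 after TAC, for those called between genotypes, and for the paralogue pairs. The values of Tmsb4x per library were added after their values were seen. Of the other actin genes, the 3 largest called rises and falls in Ctrl are named by rule, and those called between genotypes were chosen after their values were seen.

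Alternatives were RLE scaling, DESeq2 1.42.0, no low-count filter, a term for animal numbers starting with 25 or with 33, fits to 8 libraries, and omission of libraries. Protein sequences were not used here.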

Additional observations from a re-analysis of the deposited data

Results flagged for a closer look

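In each group of 4 libraries the highest or lowest value was compared with the rest, as its gap to the nearest library divided by the group's whole range, and a share above Dixon's critical value for 4 samples was noted. Chance notes about 1 in 20 groups. Among members this was 9 of 172 groups, where 1 in 20 would be 8.6, among paralogue ratios 2 of 16 groups, where it would be 0.8, and for Cardinal 2 of 4.

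Cardinal stood at 4.55 CPM in the library labelled KO TAC 4, with 0.371 as the next (gap 0.978 of the range), and at 8.02 CPM in Ctrl TAC 1, with 3.37 as the next (0.872).

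Among members after TAC, Arpc1b was high in KO TAC 2 at 63.2 CPM against 59.1 in the nearest library (gap 0.878 of the range). Myh10 was high in KO TAC 3 at 71.7 against 56.3 CPM (0.894). Lmod2 was low in Ctrl TAC 1 at 748 against 846 CPM (0.898), and Pdlim1 was low in Ctrl TAC 2 at 61.6 against 65.4 CPM (0.894).

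Among sham hearts, Myh10 was low in Ctrl sham 1 at 32.8 against 37.2 CPM (0.831), and Tmsb4x was high in Ctrl sham 4 at 202 against 182 CPM (0.853). Cap2 was low in KO sham 2 at 128 against 132 CPM (0.903), Myh9 was low in KO sham 4 at 121 against 131 CPM (0.903), and Tmod1 was high in KO sham 1 at 325 against 309.6 CPM (0.907). The ratio of Cfl2 to Cfl1 was high in Ctrl sham 1 at 3.79 against 3.30 (0.832), and that of Flnc to Flna low in Ctrl sham 2 at 1.97 against 2.21 (0.857).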

How the results depend on the processing

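The comparison of KO TAC with Ctrl TAC depended most on the processing. Its 1 called member (Cfl2, muscle-type) became 0 with no low-count filter, with the term for the animal-number series, in the fit to 8 libraries, and with Ctrl TAC 2 and KO TAC 4 left out together. DESeq2 called 12 members, of which 3 were muscle-type and 9 non-muscle. Leaving out 1 library at a time gave 0 to 2 members, 0 to 1 of them muscle-type and 0 to 1 non-muscle. The cause was not tested. Over all genes this comparison called 489, with 63 without Ctrl TAC 2 and 733 without Ctrl TAC 4, 285 with no filter, 154 in the fit to 8 libraries, 109 without both libraries, 12 with the series term and 1199 by DESeq2. After TAC, leaving out 1 library gave 23 to 32 members in Ctrl (30 with all) and 35 to 37 in KO (36 with all). The series term gave 23 in Ctrl and 37 in KO. The term for animal numbers starting with 33 gave 31 in Ctrl and 34 in KO. In KO, 4831 of all genes were called with that term, against 6271 without it. KO against Ctrl in sham and the interaction gave 0 members under every alternative that was run. No called member changed direction. No paired analysis was possible because the labels give each mouse its own animal number and no number is shared between groups. Depth was at least 53169437 counts per library. How far counting and the spread between 4 mice per group each set the precision for a gene was not tested.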
